A study of Homo sapiens with 6 samples.

Results

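Caspases are cysteine proteases that cut their targets after aspartate. Described here are 8 caspase genes, CASP1, CASP2, CASP4, CASP6, CASP8, CASP9, CASP10 and CASP14, chosen by gene name from a table of 60612 gene rows. They were proposed with the difference between the groups below in view, so their differences are given as a description and support nothing further. RNA was sequenced from 6 libraries of SNU-368, a line labelled as hepatocellular carcinoma. The treatment label was shCtrl, a control hairpin RNA, in 3 of them and shTFAM in the other 3, where the hairpin targets TFAM, the factor that packages and helps transcribe mitochondrial DNA (mtDNA). No further treatment is given for either group. The design text speaks of 6 cell lines, all SNU-368, and the labels do not say how many hairpin sequences were used, whether the cells were clones or pools, or whether replicates were separate cultures. Libraries are numbered here 1 to 3 within each group, the shTFAM libraries being 4 to 6 in the titles, so a number shared by both groups pairs nothing. The p-values measure the spread between these libraries, which may be technical.

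Initiator caspases are activated on protein platforms and then cut executioner caspases, which dismantle the cell. CASP9 is activated on the apoptosome, which APAF1 forms with cytochrome c released from mitochondria. CASP8 and CASP10 are activated at death receptors, CASP2 on the PIDDosome, and CASP6 acts as an executioner. CASP1 and CASP4 belong to the inflammatory branch, in which inflammasomes lead to processing of interleukins and gasdermin D. CASP14 is known mainly from cornifying keratinocytes, where it takes part in breaking down filaggrin. These proteases are made as inactive precursors, so an mRNA level is not a measure of their activity.

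All 8 genes encode the catalytic cysteine within the same kind of short stretch. The lines below show those 15 bases of coding sequence, 5′ to 3′, from 1 GENCODE release 29 transcript per gene, with the cysteine codon in capitals, because they show what CASP14 shares with the apoptotic and inflammatory members.
CASP14: caggccTGTcgagga
CASP1: caggccTGCcgtggt
CASP4: caggccTGCagaggt
CASP2: caggccTGCcgtgga
CASP9: caggccTGTggtggg
CASP8: caggctTGTcagggg
CASP10: caggccTGCcaaggt
CASP6: caggcaTGTcgggga
In CASP14 the stretch lies in exon 4 of 7 on the plus strand (GRCh38, chr19:15053943-15053957), with the cysteine at codon 132 of 242, the shortest of the 8 coding sequences. In CASP1 it lies in exon 6 of 9 on the minus strand (chr11:105029666-105029680), at codon 285 of 404. In CASP4 it lies in exon 5 of 9 on the minus strand (chr11:104949544-104949558), at codon 258 of 377. The coding sequence of CARD16, a neighbour of CASP1 that encodes a recruitment domain without a protease domain, held no such stretch in its 197 codons.

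The libraries held 43286024 to 61058282 counts, and a floor of 3 counts, which covers counting error only, was worth 0.0519 to 0.0677 CPM. CPM are counts per 1e6 counts of the tested rows, after TMM scaling between libraries. TFAM stood at 82.2, 76.2 and 89.6 CPM in shCtrl 1 to 3 and at 63.7, 65.0 and 56.7 CPM in shTFAM 1 to 3, so the groups did not overlap. The fitted log2 fold change was -0.42 (edgeR adjusted p 0.0377, SE 0.107). That call ended when any 1 library was left out (edgeR adjusted p 0.0676 to 0.0948), without the filter on low rows described below (0.0644), and without shCtrl 3 and shTFAM 3 together (0.0818). shTFAM 3 was the deepest library, with the lowest TFAM and the lowest share of mtDNA counts (7.91%, against 8.65 to 14.2% elsewhere), and the second principal component set shCtrl 3 (-45.6) apart from shCtrl 1 (32.4) and shCtrl 2 (22). Of 11 hepatocyte markers, 6 had 0 counts in every library (ALB, AFP, APOA1, APOB, TTR and FGB), and 2, KRT8 and KRT18, passed the filter. KRT8, a keratin of simple epithelia, rose from 633 to 966 CPM (edgeR adjusted p 0.0160, log2 fold change 0.61), while KRT18 overlapped between groups. HNF4A, another of these markers, had 35 to 130 counts per library and was under the filter. Most of the 11 hepatocyte markers listed were thus without counts or under the filter in these libraries. Of 8 stromal and endothelial markers, 4 passed the filter, PDGFRB was called higher, and COL1A2 had 0 counts. DCN was called higher too, but with means of 0.201 FPKM in shCtrl and 1.48 FPKM in shTFAM it passed the filter only through shTFAM. COL1A1 (log2 fold change 0.09, edgeR adjusted p 0.779) and LUM (1.17, edgeR adjusted p 0.0924) overlapped between groups. The summed level of the 8 markers was 24.9 to 37.9 FPKM in shCtrl and 37.2 to 41.1 FPKM in shTFAM. COL1A1 made up most of it, at means of 29.4 and 29.5 FPKM. The part of these values in the results below was not tested.

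Of the 8 caspases, 7 passed the filter of a mean of at least 0.5 FPKM (counts scaled to gene length and depth) over the 6 libraries. CASP1, at a mean of 0.20 FPKM, did not, and CASP10, at 0.559 FPKM, passed only through shCtrl. In the edgeR quasi-likelihood fit over 14708 rows, CASP14 and CASP4 were called higher in shTFAM at an adjusted p of 0.05, none was called lower, and 5 were not called. Over all rows tested, 17.9% were called, 11.3% higher and 6.59% lower. The CPM ranges of the groups did not overlap for 4 of the 7, CASP14, CASP4, CASP9 and CASP10, against 42.2% of all rows. Since the members were proposed from this comparison, nothing is read from these counts. At an unadjusted p of 0.05, 3 were higher, CASP9 being the third, and 0 were lower. Rows that overlap a member (1 for CASP6, 1 for CASP9, 2 for CASP2 and 3 for CASP10) held 0 to 83 counts each over the 6 libraries.

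**Figure D1:**
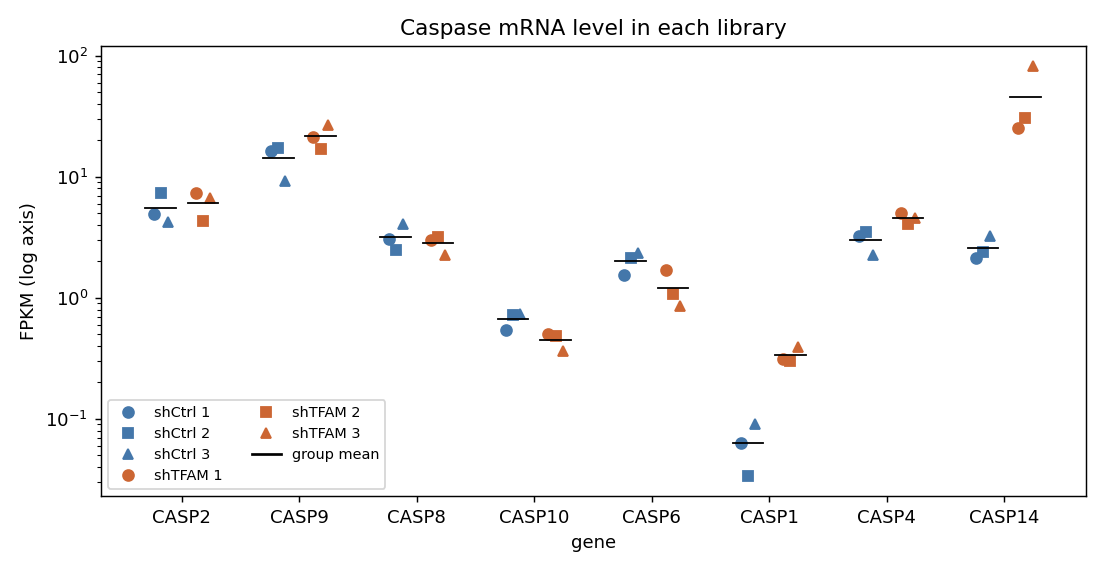
FPKM (log axis) of the 8 caspases in each of the 6 libraries, with shCtrl in blue, shTFAM in orange, a marker shape per library within each group (shapes do not pair libraries across groups) and a bar at each group mean. CASP14 moves from 2.14 to 3.21 FPKM in shCtrl to 25.2 to 81.5 FPKM in shTFAM, while CASP2 and CASP8 overlap between groups.

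Per gene length, CASP9 was the most abundant of the 8 in shCtrl, at 14.3 ± 4.39 FPKM (SD, n = 3). CASP2 followed at 5.48 ± 1.62 FPKM, and its range did not overlap that of CASP9 or of the next gene. CASP8 (3.19 ± 0.781 FPKM), CASP4 (3.01 ± 0.665 FPKM), CASP14 (2.58 ± 0.562 FPKM) and CASP6 (2.01 ± 0.411 FPKM) formed a run in which each range overlapped the next. CASP10 (0.665 ± 0.105 FPKM) and CASP1 (0.0628 ± 0.0287 FPKM) were lowest, each apart from its neighbours. In shTFAM the order opened with CASP14 at 45.7 ± 31.1 FPKM (SD, n = 3), whose range overlapped that of CASP9 at 21.6 ± 4.88 FPKM. The rest of the order was CASP2, CASP4, CASP8, CASP6, CASP10 and CASP1. Within it the ranges of CASP2 and CASP4 overlapped, and so did those of CASP10 and CASP1. CASP14 made up 6.65 to 12.3% of the summed FPKM of the 8 genes in shCtrl libraries and 39.0 to 66.2% in shTFAM libraries. Without CASP14 the sum was 22.9 to 33.5 FPKM in shCtrl and 30.3 to 41.7 FPKM in shTFAM, and these ranges overlapped.

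CASP14 (ENSG00000105141, chromosome 19, 15049480 to 15058293, plus strand, hg38) had 373, 487 and 620 counts in shCtrl 1 to 3 and 4726, 5615 and 20258 in shTFAM 1 to 3. Scaled to depth these were 8.41, 9.49 and 12.6 CPM against 102, 125 and 351 CPM. Every shTFAM library was above every shCtrl library, and shTFAM 3 stood far above the other two of its group. Group means were 10.2 ± 2.16 and 193 ± 137 CPM (SD, n = 3 each). The fitted log2 fold change was 4.25 (SE 0.518), 19.0-fold higher, the 36th highest of the 14708 rows. Without shTFAM 3 it was 3.48, and without both shCtrl 3 and shTFAM 3 it was 3.67. By FPKM, CASP14 ranked between 8272 and 10067 among all rows in shCtrl libraries, and 1504, 1168 and 380 in shTFAM 1 to 3. No other row of the table overlapped it. In these bulk libraries, more cells with CASP14 mRNA and more of it per cell cannot be told apart.

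Most genes that CASP14 acts beside in skin were not detected. Of 27 genes of the cornified epidermis, 16 had 0 counts in all 6 libraries, among them FLG (filaggrin), LORICRIN, IVL, KRT1 and KRT2, and 5 passed the filter. Of those 5, ALOX12B, a lipoxygenase of the epidermal lipid barrier, was called higher, none was called lower, and 4 were not called. That is 20% called, near the 17.9% of all rows. ALOX12B went from 2.66, 3.04 and 3.49 CPM in shCtrl to 5.79, 5.20 and 6.91 CPM in shTFAM, a log2 fold change of 0.96 (edgeR adjusted p 0.0236, SE 0.209). Leaving out any of 4 libraries, shCtrl 1 and 2 and shTFAM 1 and 3, ended this call (edgeR adjusted p 0.0562 to 0.0783). The median log2 fold change of the 5 was 0.39. The summed level of the list was 54.4 to 89.2 FPKM in shCtrl and 74.7 to 82.5 FPKM in shTFAM. KRT10 made up most of it, at means of 49.4 and 62.5 FPKM. KRT10, which stood at 97.1 to 174 CPM in shCtrl and 153 to 188 CPM in shTFAM, did not pass (0.43, edgeR adjusted p 0.247). For TGM1 and BLMH, every shTFAM library was below every shCtrl library. TGM1 went from 5.16 to 3.36 CPM (-0.62, edgeR adjusted p 0.150). BLMH went from 78.0 to 64.5 CPM (-0.27, edgeR adjusted p 0.183). PADI3 overlapped between groups (0.39, edgeR adjusted p 0.410).

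The RefSeq promoter of CASP14 is shown because its transcript changed most among the 8. It covers 250 bases before the start to 50 after, on the plus strand (GRCh38.p14, chr19:15049230-15049529), and capitals mark the single match to the motifs searched.
CASP14: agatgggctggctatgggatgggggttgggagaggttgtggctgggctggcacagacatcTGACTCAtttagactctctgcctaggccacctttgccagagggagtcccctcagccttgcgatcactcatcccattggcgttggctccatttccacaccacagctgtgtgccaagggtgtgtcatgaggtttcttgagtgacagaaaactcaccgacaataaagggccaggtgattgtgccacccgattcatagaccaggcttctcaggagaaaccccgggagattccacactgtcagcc
The motifs searched on both strands were ACGTG and GCGTG, the cores of the element bound by hypoxia-inducible factors, TGANTCA, the core bound by AP-1, TATAAA, and TTCNNNGAA, the element bound by STAT factors. The match is to TGANTCA, at position -190 from the start, and 7.71% of 35116 RefSeq promoters of the same length held that motif. Neither ACGTG nor GCGTG was in this window, against 48.4% of promoters with at least 1 of them. Of the 8 caspases, 6 had promoters in the table, some of them more than 1. In at least 1 promoter each, CASP4 (-51) and CASP8 (-91) held ACGTG, and CASP2 (-62), CASP6 (-66), CASP8 (-172) and CASP9 (-130) held GCGTG. Besides CASP14, 2 promoters of CASP8 held TGANTCA, at -1 and -61. These matches are descriptions of letters, not binding sites.

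By Pearson's r of log2(CPM + 1) over the 6 libraries, the 5 named genes most like CASP14 were OTUD1, HK2, CDA, PHLPP1 and CA9, with r from 0.9991 to 0.9998. These points share libraries and the split into groups, so r is given as a description. HK2, a hexokinase, stood at 109, 115 and 130 CPM in shCtrl 1 to 3 and at 533, 651 and 1255 CPM in shTFAM 1 to 3. CA9, a carbonic anhydrase known as a hypoxia target, went from 67.9, 74.3 and 97.0 CPM to 431, 460 and 938 CPM. OTUD1, a deubiquitinase, went from 8.30, 9.24 and 10.5 CPM to 38.2, 44.6 and 84.2 CPM. In each of these, as in CASP14, shCtrl 3 was the highest shCtrl library and shTFAM 3 the highest shTFAM library. Since the genes were picked by their likeness to CASP14 over these libraries, that order comes with the choice. CDA, cytidine deaminase, and PHLPP1, a phosphatase, shared that order with smaller log2 fold changes of 0.93 and 0.76, against 2.57 for OTUD1, 2.79 for HK2 and 2.93 for CA9.

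**Figure D2:**
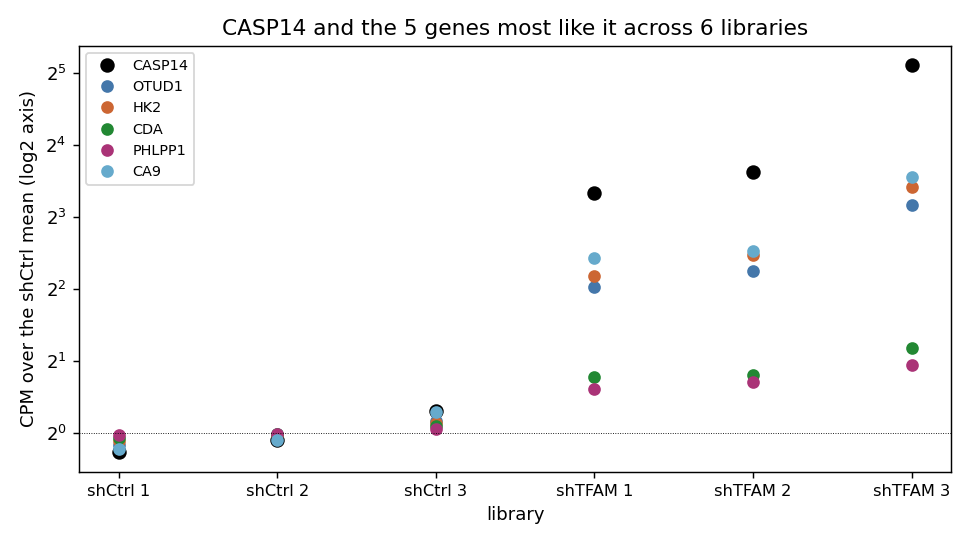
CPM of CASP14 and of the 5 genes most like it in each of the 6 libraries, divided by the mean of the shCtrl libraries (log2 axis). All 6 genes are highest in shTFAM 3, and CASP14 lies above the other genes in every shTFAM library.

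Next to CASP14, the 2 other rows within 100 kb that passed the filter were higher in shTFAM too. SYDE1 lies on the same strand (15107401 to 15114974), and ILVBL, on the minus strand (15114984 to 15125786), starts beyond it. SYDE1 rose from 16.1, 36.3 and 14.8 CPM to 112, 48.9 and 90.0 CPM (log2 fold change 1.9, SE 0.431, edgeR adjusted p 0.0268). SYDE1 did not pass with shCtrl 1, shCtrl 3, shTFAM 1 or shTFAM 3 left out (edgeR adjusted p 0.0688 to 0.0788). ILVBL rose from 52.9, 52.4 and 53.0 CPM to 83.9, 77.4 and 124 CPM (0.85, SE 0.182, edgeR adjusted p 0.0224), a call that ended without any 1 shCtrl library (edgeR adjusted p 0.0534 to 0.0688). SLC1A6, on the other side, had 0 counts in all shCtrl libraries and 43 in the shTFAM libraries together. Of the other 5 rows in the window, AC003956 had 14 counts in shCtrl and 31 in shTFAM, with overlapping ranges, CCDC105 had 4 counts in all, and 3 had 0. SLC1A6, AC003956 and CCDC105 were under the filter and were named after their values were seen.

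**Figure D3:**
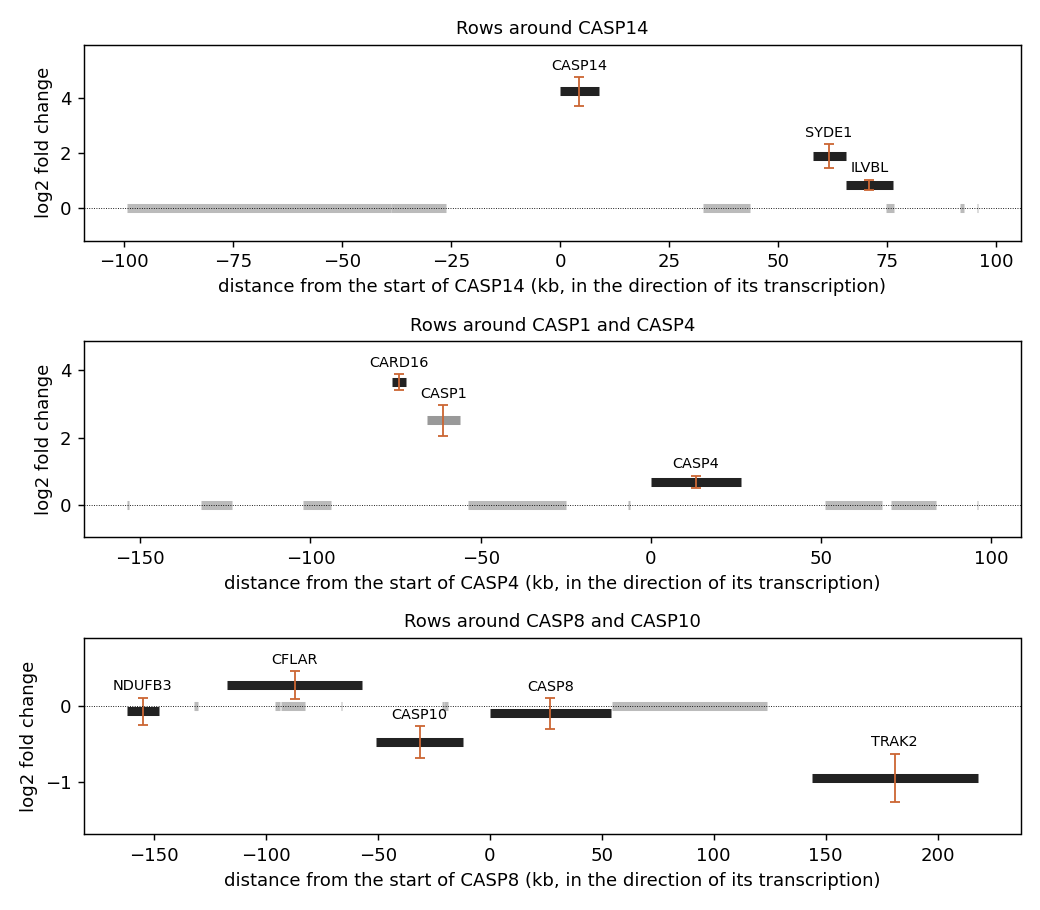
Log2 fold change of shTFAM against shCtrl (bars as long as the gene, orange whiskers 1 SE) by distance in kb from the start of CASP14, CASP4 or CASP8, for all rows within 100 kb of CASP14 and of the 2 caspase clusters. Light grey bars on the zero line mark the position of rows under the filter, with no value. CASP1, under the filter, is in mid grey from a fit without it. The 3 valued rows around CASP14 lie above 0, as do CARD16, CASP1 and CASP4.

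The inflammatory caspases lie in 1 cluster on chromosome 11, all on the minus strand. CASP4 (ENSG00000196954, 104942866 to 104969366), the sensor of cytosolic lipopolysaccharide, stood at 25.0, 27.5 and 17.4 CPM in shCtrl 1 to 3 and at 40.2, 33.3 and 38.6 CPM in shTFAM 1 to 3. The groups did not overlap, and shCtrl 3 was the lowest library. The log2 fold change was 0.68 (SE 0.185), 1.60-fold higher. CASP4 was no longer called when any 1 of the 6 libraries was left out, where its log2 fold change ranged from 0.50 to 0.82, nor when libraries were scaled to their totals (0.61) or to counts outside mtDNA (0.55).

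CASP1 (ENSG00000137752, 105025443 to 105035250) was barely detected in shCtrl, with 12, 8 and 20 counts, and had 65, 64 and 112 counts in shTFAM. These were 0.271, 0.156 and 0.406 CPM against 1.41, 1.43 and 1.94 CPM, above the floor in every library and without overlap. With no filter on low rows, its log2 fold change was 2.51 (SE 0.458). CARD16 (ENSG00000204397, 105041326 to 105045376), which can bind the recruitment domain of CASP1, had 32, 45 and 27 counts in shCtrl and 439, 398 and 496 in shTFAM. It rose from 0.715 ± 0.165 to 8.99 ± 0.460 CPM (SD, n = 3 each), a log2 fold change of 3.65 (edgeR adjusted p 0.000842, SE 0.240), and passed the filter only through shTFAM. On log2(FPKM + 1) the log2 fold change of CARD16 was 1.98.

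Reads of CASP1 and CARD16 could be shared. Of the 31-base words in GENCODE transcripts of CASP1, 7.66% also occurred in CARD16, which is 17.8% of the words of CARD16. The longest identical run between the principal transcripts was 144 bases. The sources used here do not give how the authors' counting treated such reads, so the CASP1 values are uncertain. CASP1 had 40 counts to 104 of CARD16 in the shCtrl libraries together and 241 to 1333 in shTFAM. CASP5 and CASP12, in the same cluster, had 0 counts in all 6 libraries, and CARD17 had 4 counts in all.

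Markers of immune cells, in which CASP1 is abundant, were measured in the same libraries. Of 8 such markers, PTPRC, CD3E, LYZ and TYROBP had 0 counts in every library, and CD68 and CSF1R, which passed the filter, were higher in shTFAM. CD68, a lysosomal protein, rose from 13.8 to 37.0 CPM (log2 fold change 1.43, edgeR adjusted p 0.00892). CSF1R, a receptor of macrophages, rose from 25.6 to 49.8 CPM (0.96, edgeR adjusted p 0.0233). The summed level of the list was 9.25 to 11.1 FPKM in shCtrl and 19.9 to 28.6 FPKM in shTFAM. Their part in the values of CASP1, CASP4 and CARD16 was not tested.

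Around the inflammatory caspases, 9 of 19 inflammasome and pyroptosis genes passed the filter. IL18, a cytokine processed by CASP1, rose from 21.4 to 31.7 CPM (log2 fold change 0.57, SE 0.149, edgeR adjusted p 0.0404), none fell, and 8 did not pass (median log2 fold change 0.15, against -0.02 over all rows). The share of the list that was called was 11.1%, against 17.9% of all rows. IL18 kept its call without shTFAM 1 (edgeR adjusted p 0.0344) and lost it without each of the other five libraries (0.0720 to 0.121), with scaling to library totals (0.0548) or outside mtDNA (0.0824), without the filter (0.0660), and in both limma fits (0.0553 and 0.0560). Among the sensors, NLRP3 and AIM2 had 0 counts throughout, as did the gasdermin GSDMA. NLRP1, another sensor, was not called (edgeR adjusted p 0.0814), at a log2 fold change of 0.78. NLRP1 stood at 8.95, 7.76 and 4.76 CPM in shCtrl and at 12.4, 10.2 and 14.3 CPM in shTFAM, without overlap. NLRC4, MEFV and CARD8 had some counts but were under the filter. Another gasdermin, GSDME, overlapped between groups at 23.0 to 38.6 CPM in shCtrl and 28.1 to 52.1 CPM in shTFAM. The adaptor PYCARD had 2 counts in all, and the substrate GSDMD overlapped between groups at 9.20 to 12.1 CPM and 11.3 to 13 CPM. These genes were chosen after their values were seen.

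CASP8 and CASP10, the initiators of the death receptor route, are neighbours on chromosome 2 with CFLAR, the protease-dead relative that restrains CASP8. CASP8 (ENSG00000064012, 201233443 to 201287711, plus strand) stood at 25.5, 21.2 and 33.7 CPM in shCtrl 1 to 3 and at 25.9, 28.3 and 20.9 CPM in shTFAM 1 to 3. The groups overlapped, with a log2 fold change of -0.10 (SE 0.201), which turned positive without shCtrl 3 (0.094) or without shTFAM 3 (0.016). CASP10 (ENSG00000003400, 201182898 to 201221665, plus strand) stood at 4.80, 6.45 and 6.39 CPM in shCtrl and at 4.63, 4.49 and 3.55 CPM in shTFAM. All shTFAM libraries were below all shCtrl libraries, shTFAM 1 only narrowly, and the log2 fold change was -0.48 (SE 0.211). CFLAR overlapped between groups at 11.7 to 16.9 and 15.2 to 18.5 CPM (0.28, edgeR adjusted p 0.331). The ratio of CASP8 to CASP10 by FPKM was 3.46 to 5.60 in shCtrl and 5.88 to 6.62 in shTFAM.

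At the ends of that stretch, NDUFB3 (-0.07, edgeR adjusted p 0.813) and TRAK2 (-0.95, edgeR adjusted p 0.0807) did not pass. TRAK2, an adaptor of mitochondrial transport, stood at 94.7, 91.2 and 68.4 CPM in shCtrl and at 58.0, 50.4 and 23.7 CPM in shTFAM, and passed in DESeq2 (DESeq2 adjusted p 0.0106) and without shCtrl 3 and shTFAM 3 together (edgeR adjusted p 0.0173).

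Of 15 death receptor genes, 12 passed the filter, 2 were called higher, none was called lower and 10 were not called (median log2 fold change -0.06). The share called was 16.7%, near the 17.9% of all rows. The adaptor TRADD rose from 7.55, 7.52 and 7.54 CPM to 12.4, 11.8 and 12.8 CPM (log2 fold change 0.71, SE 0.135, edgeR adjusted p 0.0154). TNFRSF10D, a decoy receptor for TRAIL, rose from 20.3, 22.4 and 24.0 CPM to 32.2, 35.2 and 49.5 CPM (0.81, SE 0.181, edgeR adjusted p 0.0253). Both calls ended without shCtrl 1 or shCtrl 2 (edgeR adjusted p 0.0574 and 0.0590 for TRADD, 0.0749 and 0.0793 for TNFRSF10D), and that of TNFRSF10D without shTFAM 2 (0.0526).

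CASP9 (ENSG00000132906, chromosome 1, 15490832 to 15524889, minus strand) stood at 98.8, 106 and 55.9 CPM in shCtrl 1 to 3 and at 135, 108 and 177 CPM in shTFAM 1 to 3. The groups were separated only narrowly, between shCtrl 2 and shTFAM 2, while shCtrl 3 was the lowest library and shTFAM 3 the highest. Its log2 fold change of 0.68 (SE 0.275) was close in size to that of CASP4, with a larger error, and was 0.24 with shCtrl 3 and shTFAM 3 left out. CASP2 (ENSG00000106144, chromosome 7, 143288215 to 143307696, plus strand) stood at 45.8, 68.4 and 38.7 CPM in shCtrl and at 70.9, 41.8 and 67.5 CPM in shTFAM. The groups overlapped over most of their range (log2 fold change 0.24, SE 0.268).

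None of the 8 genes of the apoptosome and PIDDosome, on which CASP9 and CASP2 are activated, passed in edgeR (median log2 fold change -0.16). Over all rows 17.9% were called. At an unadjusted p of 0.05, 2 were higher, APAF1 (log2 fold change 0.43) and CRADD (0.62), and 2 lower. DESeq2 called 2 lower. CYCS, cytochrome c, stood at 202, 209 and 273 CPM in shCtrl and at 169, 187 and 155 CPM in shTFAM (log2 fold change -0.42, SE 0.142, edgeR adjusted p 0.0833). It passed in DESeq2 (DESeq2 adjusted p 0.0476) and when libraries were scaled to counts outside mtDNA (edgeR adjusted p 0.0380). ENDOG, a mitochondrial nuclease, overlapped between groups (-0.15, edgeR adjusted p 0.567).

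CASP6 (ENSG00000138794, chromosome 4, 109688622 to 109703583, minus strand), the executioner of the set, had low counts of 158, 250 and 263 in shCtrl 1 to 3 and 187, 117 and 126 in shTFAM 1 to 3. It stood at 3.56, 4.87 and 5.33 CPM against 4.04, 2.61 and 2.18 CPM. shTFAM 1 lay inside the shCtrl range and the other two shTFAM libraries below it (log2 fold change -0.64, SE 0.297). Of 13 substrates of the execution phase, 12 passed the filter, 1 rose, 1 fell and 10 did not pass. The share called was 16.7%, near the 17.9% of all rows. LMNA, which encodes lamins A and C, rose from 604 ± 45.6 to 911 ± 64.5 CPM (SD, n = 3 each), a log2 fold change of 0.59 (edgeR adjusted p 0.0116, SE 0.103), and this call was lost without shCtrl 2 (0.0516). PARP1, a DNA repair enzyme, fell from 575 ± 60.6 to 444 ± 17.3 CPM (SD, n = 3 each), a log2 fold change of -0.37 (edgeR adjusted p 0.0488, SE 0.104), and this call was lost without any 1 library (edgeR adjusted p 0.0650 to 0.12). The median log2 fold change of the 12 was -0.04.

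**Figure D4:**
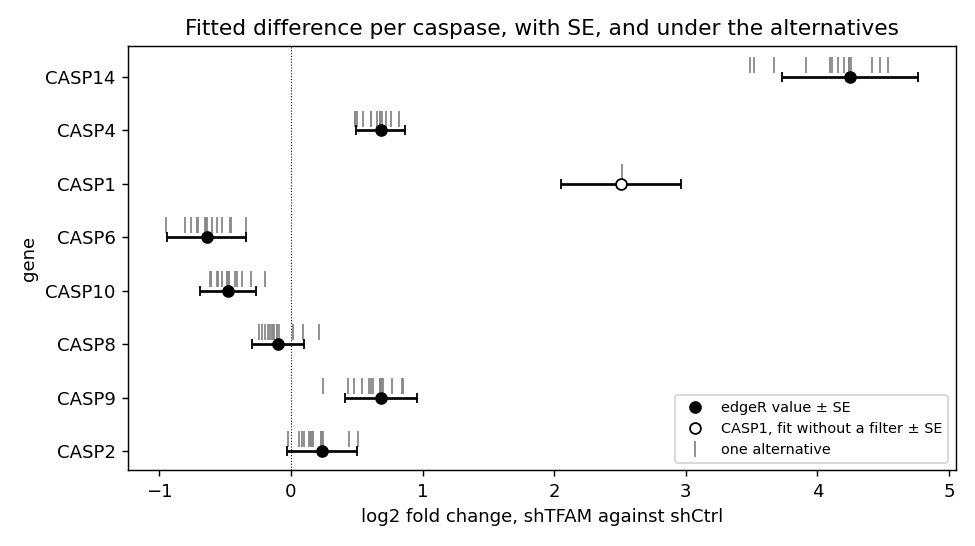
Log2 fold change of shTFAM against shCtrl for the 8 caspases (points, with 1 SE), and the same under each alternative analysis (grey ticks). The open point of CASP1 comes from the fit without a filter. CASP14 lies between 3.48 and 4.53 throughout, and the ticks of CASP8 and CASP2 fall on both sides of 0.

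Upstream of the caspases, the BCL2 family decides whether mitochondria release cytochrome c. Of 6 pro-survival members 3 passed the filter, and MCL1 rose from 557 ± 88.6 to 886 ± 173 CPM (SD, n = 3 each), a log2 fold change of 0.67 (edgeR adjusted p 0.0397, SE 0.174), none fell and 2 did not pass. Of 11 pro-death members 10 passed the filter, and BAD rose from 11.2 ± 1.19 to 16.6 ± 1.5 CPM (SD, n = 3 each), a log2 fold change of 0.56 (edgeR adjusted p 0.0418, SE 0.149). None was called lower and 9 were not called. By unadjusted edgeR p under 0.05, 3 pro-death members were higher and 2 lower. The lower ones were BCL2L11, from 33.1 to 22.2 CPM without overlap (-0.58, edgeR adjusted p 0.0629), and PMAIP1 (-0.46, edgeR adjusted p 0.133). Among the 7 inhibitor of apoptosis genes BIRC3 rose from 15.4 ± 2.53 to 27.3 ± 6.89 CPM (SD, n = 3 each), a log2 fold change of 0.83 (edgeR adjusted p 0.0394, SE 0.214). None of the 7 was called lower and 6 were not called. The median log2 fold changes of the 3 lists were 0.67, 0.16 and 0.25, against -0.02 over all rows. The first is the value of MCL1 itself, between BCL2L1 at 0.37 and BCL2L2 at 2.05. BCL2L2 was high in shTFAM 3 only, so this median does not describe the family. The shares called in the 3 lists were 33.3, 10 and 14.3%, against 17.9% of all rows. The calls of MCL1, BAD and BIRC3 each ended without any 1 library (edgeR adjusted p 0.0568 to 0.102, 0.0715 to 0.115 and 0.0595 to 0.0887). All 3 also ended without the filter (0.0563, 0.0734 and 0.0562) and with scaling outside mtDNA (0.0590, 0.0984 and 0.0549), that of BAD with library totals too (0.0701), and those of BAD and BIRC3 in both limma fits (0.0510 to 0.0573).

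Over the 9 lists together, 10 of 71 genes tested were called, 9 higher and 1 lower, or 14.1%, against 17.9% of all rows. Of the 10, CARD16 had the largest log2 fold change, 3.65, and the other nine lay between -0.37 and 0.96.

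**Figure D5:**
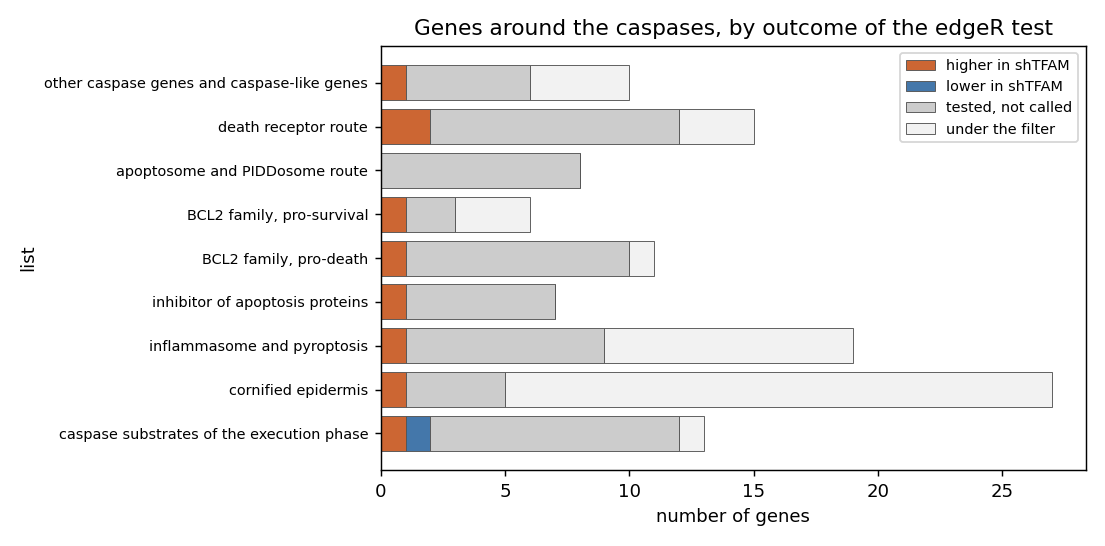
Number of genes in each of the 9 lists around the caspases that were higher or lower in shTFAM by edgeR, tested but not called, or under the filter. No list has more than 2 genes higher, and the substrates of the execution phase are the list with a gene lower.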

How the data were processed

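The authors deposited 1 table with whole-number counts and FPKM per Ensembl gene for each library, per the file headers. Per the submitters' processing notes, the tools were HISAT2 2.0.4, StringTie 1.3.4d, Bowtie 0.12.2 and cutadapt 1.9, and hg38 and mm8 were the builds, whose roles are not stated; counting and strand settings are not given in the sources used here. Libraries were dUTP-marked poly(A) RNA, per the labels' protocols.

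Columns were matched to samples by title and groups taken from the treatment label. Rows averaging 0.5 FPKM or more, 99.4 to 99.5% of counts, were fitted with edgeR 4.0.16 (R 4.3.3) quasi-likelihood, TMM scaling, two-sided, with Benjamini-Hochberg adjustment over 14708 rows. CPM use TMM-scaled library sizes. SE is the log2 fold change over the root of F. The fit was tested on simulated data. Alternatives used DESeq2 1.42.0, limma 3.58.1 on log2(FPKM + 1) and log2(FPKM + 0.1), other scalings and filters, and left-out libraries. No replicate pair agreed within sampling noise. Figures used matplotlib.

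The members and gene lists were chosen with earlier results of these data known. Genes named are the members, TFAM, up to 4 called genes per list by smallest p or else 2 by abundance, the 5 genes most like CASP14, and filtered rows within 100 kb of CASP14 and of the CASP1-CASP4 and CASP8-CASP10 clusters; others were named after their values were seen. One marker gene that passed the filter is not reported here by name.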

Additional observations from a re-analysis of the deposited data

How the results depend on the processing

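CASP14 and CARD16 kept their direction and call in all 15 alternatives (log2 fold change 3.48 to 4.53 and 1.98 to 3.82). CASP14 was proposed from this same comparison, and CARD16 passed the filter only through shTFAM. These refits of the same libraries are thus no independent support for either. CASP4 kept its direction and lost its call in 12 of 15, and CASP9 gained one with DESeq2. Over single left-out libraries, all rows called ranged from 1148 to 2065 (main 2630), higher rows from 843 to 1332, lower rows from 305 to 733, caspases called were 1 throughout (main 2), and list genes called ranged from 1 to 7 (main 10). In those fits death receptor genes higher ranged from 0 to 2, pro-survival and pro-death BCL2 genes higher were 0, inhibitors of apoptosis and inflammasome genes higher 0 to 1, epidermal genes higher 0 to 2, and substrates higher 0 to 2 and lower 0. All rows called moved by over 1.5 times without each library except shCtrl 3. With 1 library left out the log2 fold change of CASP8 ranged from -0.24 to 0.094 and that of NDUFB3 from -0.25 to 0.10. CASP8 turned to 0.094 without shCtrl 3, 0.016 without shTFAM 3 and 0.22 without both, CASP2 to -0.019 without both, and NDUFB3 to 0.10 and 0.14 without shCtrl 3 and without both; the cause was not tested. The fit without both was chosen after seeing the data.

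Scaling outside mtDNA gave 1771 lower rows (main 969), 1 caspase, 1 lower other caspase-like gene, 1 lower death receptor gene, 2 lower apoptosome genes, 1 lower and 0 higher pro-death genes, 0 higher pro-survival, inhibitor and inflammasome genes, and 2 lower substrates. It moved the median of all rows to -0.15. Rows called higher and lower were 1353 and 1266 with library totals, 1198 and 1771 outside mtDNA and 1278 and 1337 in limma on log2(FPKM + 1), against 1661 and 969. DESeq2 gave 1677 lower rows, 21 list genes, 1 lower caspase-like gene, 2 lower death receptor and 2 lower apoptosome genes, 2 higher and 1 lower pro-death genes, 2 higher inhibitors, 2 higher inflammasome genes, and 2 higher and 2 lower substrates. Library totals and both limma fits gave 1 caspase, 1 lower caspase-like, 1 lower death receptor and 1 lower apoptosome gene, and 0 higher pro-death and inflammasome genes. Library totals also gave 1 lower pro-death gene and 2 lower substrates, log2(FPKM + 1) 2 lower substrates, and both limma fits 0 higher inhibitors. Without both libraries there were 1 caspase, 2 lower death receptor genes, 0 higher pro-survival, pro-death and inflammasome genes, and 2 higher and 0 lower substrates. No filter gave 2 caspases, CASP14 and CASP1, and 6 list genes. It also gave 0 higher pro-survival, pro-death, inhibitor and inflammasome genes, 2 higher epidermal genes and 0 lower substrates. With edgeR's own filter there were 3 caspases, CASP1 among them, 2 higher epidermal genes and 0 lower substrates. DESeq2 size factors gave 0 lower substrates. No paired analysis was possible because the titles give the groups no shared replicate numbers. With 3 libraries a group, the spread between libraries limits small differences; for CASP1 the counts do.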

Other observations

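Among genes of the lists that were not called, BCL2L2, a pro-survival BCL2 relative, had 1 library far from the rest. It stood at 4.15, 9.43 and 4.12 CPM in shCtrl 1 to 3, at 1.73 and 1.5 CPM in shTFAM 1 and 2, and at 70.1 CPM in shTFAM 3 (log2 fold change 2.05, SE 1.39, edgeR adjusted p 0.334). BMF, a pro-death member, was likewise uneven within both groups, at 3.45, 8.75 and 2.23 CPM in shCtrl and 9.60, 18.7 and 2.94 CPM in shTFAM. RIPK1, a kinase at death receptors, stood at 27.4, 29.8 and 35.9 CPM in shCtrl and 24.0, 21.5 and 14.1 CPM in shTFAM, with no overlap (-0.64, SE 0.215, edgeR adjusted p 0.0797). PADI1, an epidermal peptidylarginine deiminase under the filter, stood at 0.744, 0.624 and 1.56 CPM in shCtrl and 3.91, 4.46 and 6.46 CPM in shTFAM. These genes were chosen after their values were seen.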
